A study of Mus musculus with 8 samples.

Results

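The genes described here are 10 Kruppel-like factors, Klf2, Klf3, Klf4, Klf5, Klf6, Klf7, Klf9, Klf10, Klf11 and Klf13, taken by symbol from a table of 55223 loci in mouse muscle stem cells. They are 10 of the 17 genes of the table that carry a Klf symbol with a number, and all 10 passed the filter of a mean of at least 0.5 TPM (a level corrected for transcript length and library size). The study asked which genes respond within 1 h to bone morphogenetic proteins (BMPs), secreted ligands of the TGF-beta superfamily. Muscle stem cells of wildtype C57BL/6J female mice aged 6 to 8 weeks were expanded on Matrigel for 2 days. They were then kept for 6 h in serum-free medium with 200 ng/ml of a soluble BMP receptor (BMPR-IA/ALK3-Fc), which binds BMPs of the medium, and given a 1 h pulse. Every library, controls included, had that receptor.

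Isolations 48 and 54 each gave 1 library with 100 ng/ml BMP4 and 1 with vehicle (4 mM HCl with 0.1% BSA), and these vehicle libraries are called vehicle_a. Isolations 75 and 77 each gave 1 library with 100 ng/ml BMP6 and 1 with vehicle, called vehicle_b. So each group had 2 libraries, each from a separate isolation, and BMP4 was given in 1 experiment and BMP6 in the other. The number of mice behind an isolation is not given in the sources used here. Ligand and experiment cannot be told apart. In bulk RNA, a difference in level per cell cannot be told apart from a difference in the share of cells that express a gene.

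Estimated reads ranged from 48012825 to 58002740 per library. All 8 muscle stem cell markers of the list (Pax7, Myod1, Itga7 and others) were expressed, with a summed level of 1248 to 2736 TPM. Most of that sum was Des (412 to 1561 TPM) and Myod1 (422 to 839 TPM), while Pax7 was 11.1 to 16.9 TPM. Muscle differentiation markers (Myog, Mymk, Myh3 and others) summed to 4351 and 3907 TPM in isolation 48 and to 12844 and 12391 TPM in isolation 54, against 433 to 592 TPM in isolations 75 and 77. All 7 endothelial markers were under 1 TPM in every library, with Tie1 and Emcn at 0. Of 7 immune markers, Ptprc and Adgre1 were at 0 and 5 were under 1 TPM in every library; Itgam was 10.9 to 17.1 TPM and Cd68 0.919 to 2.01 TPM, and the list summed to 12.2 to 18.8 TPM. Of 7 fibroblast markers, 6 were under 1 TPM and Ly6a was 9.29 to 15.5 TPM. Of 6 pericyte markers, 2 (Rgs5 and Kcnj8) were under 1 TPM in every library. The 6 summed to 55.4 to 102 TPM in isolations 48 and 54 and to 15.8 to 22.4 TPM in isolations 75 and 77. In isolations 48 and 54 the highest were Notch3 (27.4 to 55.0 TPM) and Cspg4 (17.0 to 33.6 TPM). With isolation as a term in the fit, the stem cell marker Myf5 fell over both ligands (-0.93, limma adjusted p 0.00151). Sdc4 passed over both ligands too (0.64, adjusted p 0.0410), but it was higher with BMP4 only. Its log2 changes were 1.48 and 1.11 in isolations 48 and 54, and -0.015 and -0.021 in 75 and 77. The pericyte marker Cspg4 rose (0.49, adjusted p 0.0261). From group means no stem cell or pericyte marker passed over both ligands, and with isolation as a term 0.674% of all loci did. The 8 stem cell markers had a median change of -0.12 over both ligands. The 4 pericyte markers that could be tested had a median change of -0.0093 over both ligands, the lowest being Notch3 (-0.19).

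Kruppel-like factors are transcription factors that bind GC-rich and CACCC sequences through zinc fingers near their C terminus. Klf10 and Klf11 were first described as early genes induced by TGF-beta. With Klf9 and Klf13 they belong to the members that bind the corepressor Sin3a, while Klf3 binds the corepressor CtBP. Klf2 and Klf4 are known targets of the kinase ERK5 and its MEF2 partners, Klf6 and Klf4 respond quickly to growth and stress signals, and Klf9 responds to glucocorticoids. In skeletal muscle, Klf2 and Klf4 have been linked to cell fusion and Klf5 to the differentiation program.

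Promoters of 8 of the 10 members were in the RefSeq table (build GRCm38.p6), the exceptions being Klf10 and Klf5. The window read here is the 250 bases before the start. Klf11 is shown because it was the only member window with GGCGCC, Klf4 and Klf6 because they shared CACGTG with it, and Klf2 for its match to the MEF2 site. Klf11 is at chr12:24651121-24651370 (+ strand), Klf2 at chr8:72318812-72319061 (+ strand), Klf4 at chr4:55532476-55532725 (- strand) and Klf6 at chr13:5861239-5861488 (+ strand). Capitals mark GGCGCC, a GC-rich sequence that BMP-regulated SMAD proteins can bind, CACGTG, an E-box sequence, and a match to the MEF2 site.
Klf11: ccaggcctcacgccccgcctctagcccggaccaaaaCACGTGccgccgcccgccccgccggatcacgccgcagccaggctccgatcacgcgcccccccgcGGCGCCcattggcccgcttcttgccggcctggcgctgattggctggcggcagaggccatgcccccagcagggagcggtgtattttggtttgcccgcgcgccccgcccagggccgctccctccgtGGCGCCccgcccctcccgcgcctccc
Klf2: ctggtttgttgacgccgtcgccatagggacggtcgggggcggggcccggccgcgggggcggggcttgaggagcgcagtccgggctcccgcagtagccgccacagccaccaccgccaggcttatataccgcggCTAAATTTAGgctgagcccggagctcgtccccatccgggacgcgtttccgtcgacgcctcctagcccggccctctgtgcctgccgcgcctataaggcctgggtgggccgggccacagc
Klf4: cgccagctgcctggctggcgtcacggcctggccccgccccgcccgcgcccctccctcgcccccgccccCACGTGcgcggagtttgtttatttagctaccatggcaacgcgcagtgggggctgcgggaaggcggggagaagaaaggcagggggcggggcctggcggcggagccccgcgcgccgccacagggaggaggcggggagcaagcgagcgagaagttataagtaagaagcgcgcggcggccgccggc
Klf6: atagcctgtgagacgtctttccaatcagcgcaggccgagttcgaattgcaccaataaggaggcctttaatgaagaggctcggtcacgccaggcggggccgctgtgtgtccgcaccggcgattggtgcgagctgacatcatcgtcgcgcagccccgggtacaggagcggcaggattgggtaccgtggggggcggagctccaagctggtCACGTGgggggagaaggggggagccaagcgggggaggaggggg

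The motifs were searched on both strands, and a match describes letters, not binding. GGCGCC was in 9.648% of 32544 promoter windows and, among the 8 members, only in Klf11, at 150 to 145 and 26 to 21 bases before the start. CACGTG was in 6.035% of all windows and in Klf4, Klf6 and Klf11 among the members. The MEF2 site was in 2.895% of all windows and in Klf2, at 118 to 109 bases before the start. GGGCGG, the GC box that Sp and Kruppel-like factors bind, was in 7 of 8 member windows and in 32.962% of all. CACCC was in 5 of 8 and in 52.139% of all windows. TGACG, the shorter form of the CRE sequence TGACGTCA, was in 4 of 8 (Klf2, Klf4, Klf9 and Klf13) and in 17.847% of all, and CAGACA was in Klf3 and in 17.002% of all. No member window held TATAAA (12.309% of all), the CArG box of serum response factor (1.478%), TGACGTCA (1.555%) or GTCTAGAC (0.169%). GC content ranged from 59.2% in Klf7 to 78.4% in Klf3, against a median of 52.4% over all windows.

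Klf10 (chr15:38291707-38300950 in GRCm39, the build of all gene coordinates below, minus strand), a transcriptional repressor induced by TGF-beta, was higher after stimulation in 4 of 4 isolations. Its level was 28.6 TPM with vehicle and 119 TPM with BMP4 in isolation 48, and 9.95 and 109.8 TPM in isolation 54. With BMP6 it went from 39.5 to 126 TPM in isolation 75 and from 50.7 to 170.4 TPM in isolation 77. Every stimulated library was above every vehicle library, and the stimulated levels lay closer together in ratio than the vehicle levels. The ratio was 4.16 and 11.03 with BMP4 and 3.18 and 3.36 with BMP6, while the difference in level was 90.3, 99.8, 86.2 and 119.6 TPM in isolations 48, 54, 75 and 77.

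The BMP4 change of Klf10 was 2.72 on the log2(TPM + 0.5) scale (SE 0.45, n = 2 isolations), and limma gave an adjusted p of 0.367 from group means and of 0.0518 with isolation as a term. The BMP6 change was 1.70 (SE 0.45), with limma adjusted p of 1 and 0.346 in those fits. Over both ligands the change was 2.21, with an adjusted p of 0.201 from group means and of 0.0357 (SE 0.22) with isolation as a term, so Klf10 rose by the latter fit. That fit called 114 of 16908 loci, 0.674% of those tested, and Klf10 was the only member among them. By size of the rise, Klf10 was number 9 of 16908 loci with BMP4, number 22 with BMP6 and number 9 over both. Without isolation 75 or 77 Klf10 no longer passed in the fit with isolation as a term, at changes of 2.23 and 2.19. Leaving out any 1 isolation, the change ranged from 1.87 to 2.55. Each such fit leaves 1 ligand with 1 isolation, so its p does not measure the spread of that ligand's response.

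The BMP6 response of Klf10 minus its BMP4 response was -1.02 (95% interval -2.55 to 0.50, limma adjusted p 1.00 from group means), which covers no difference and a large difference. With isolation as a term the interval was -2.15 to 0.11. No locus passed in this comparison (0% of 16908 by adjusted p, 1.44% at an unadjusted p under 0.05 from group means and 13.3% with isolation as a term). With isolation as a term and without isolation 48, the Klf10 difference was -1.70 with an adjusted p of 0.0282.

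**Figure D1:**
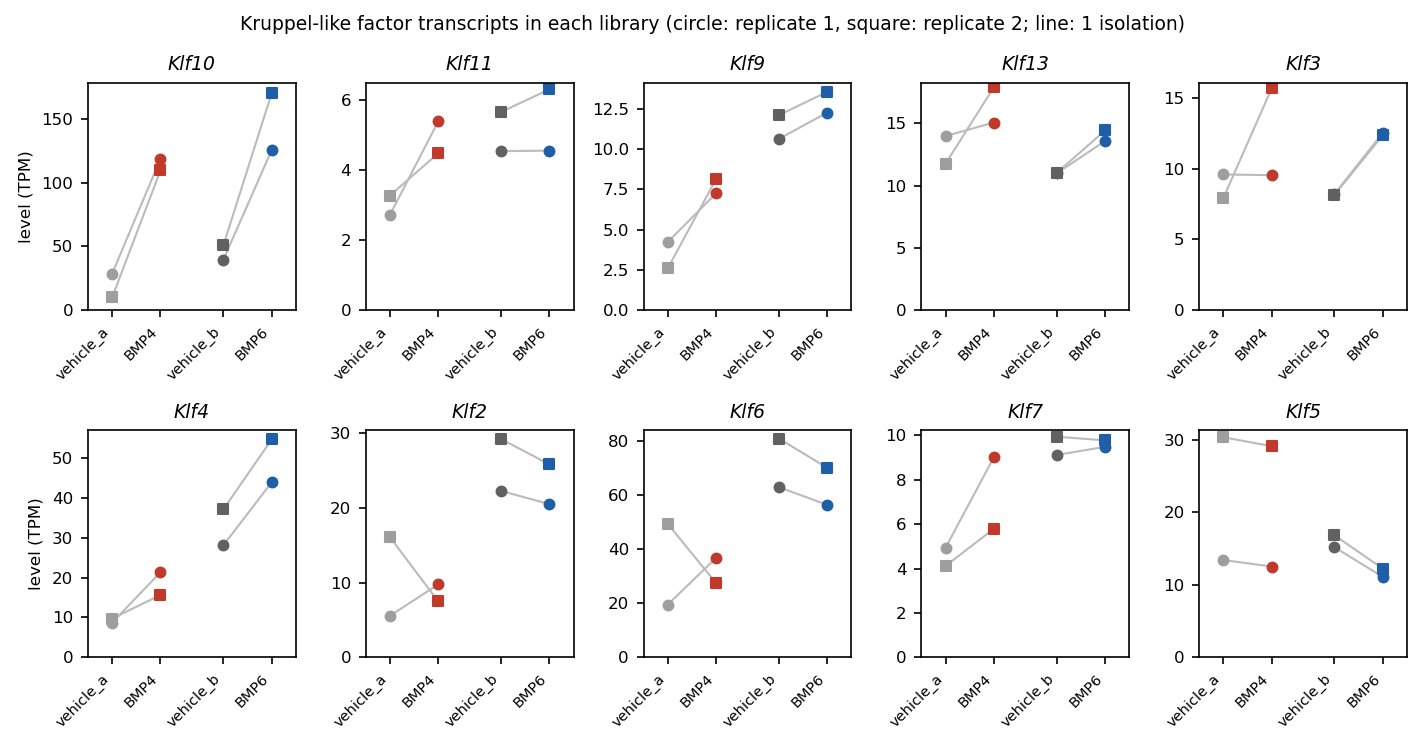
Level of each Kruppel-like factor (TPM, axis from 0) in the 8 libraries, by group, with circles for replicate 1 (isolations 48 and 75), squares for replicate 2 (54 and 77) and a line for each isolation. Klf10 goes from 9.95 to 50.7 TPM with vehicle to 109.8 to 170.4 TPM after stimulation; Klf2 and Klf6 cross within the BMP4 experiment.

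The Klf10 change was seen along its whole main transcript. Read depth was higher after stimulation in each of its 4 exons, by 3.65 to 5.32 times in isolation 48, 10.1 to 11.8 times in isolation 54, 2.66 to 3.11 times in isolation 75 and 3.24 to 3.48 times in isolation 77. These depths were not scaled to library size, unlike the levels in TPM. Of the 3 annotated transcripts, ENSMUST00000074043.7 (3044 nt) held 89.3% to 99.9% of the Klf10 level in 6 libraries but 56.1% and 75.2% in the vehicle libraries of isolations 48 and 54. In the vehicle library of isolation 48, the shorter ENSMUST00000227920.2 was given 9.42 TPM, although the last exon found only in it (762 bases) had a read depth of 0.0039. With all reads placed on the main transcript, a setting chosen after seeing the data, Klf10 in that library was 25.6 TPM in place of 28.6, and the change over both ligands was 2.25 with a limma adjusted p of 0.0259 with isolation as a term. The BMP4 change of Klf10 was then 2.80, and its adjusted p moved across the threshold, from 0.0518 to 0.0389.

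**Figure D2:**
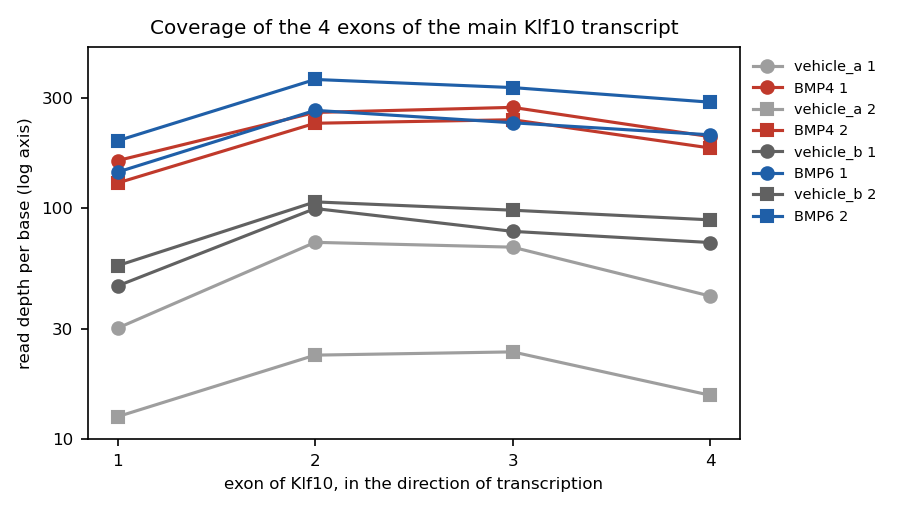
Read depth per base (log axis), not scaled to library size, over the 4 exons of the main Klf10 transcript in each library. Grey lines are vehicle, red BMP4 and blue BMP6. In each exon the 4 stimulated libraries lie above the 4 vehicle libraries.

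Klf11 (chr12:24701273-24712788, plus strand), the closest relative of Klf10 and also a Sin3a-binding repressor, had the lowest group mean of the 10 in every group, although it overlapped with Klf9 in vehicle_a. It was 2.72 TPM with vehicle and 5.40 TPM with BMP4 in isolation 48, and 3.27 and 4.48 TPM in isolation 54. With BMP6 it was 4.56 TPM against 4.54 in isolation 75 and 6.31 against 5.66 in isolation 77. So the BMP4 libraries did not overlap their vehicles, while the BMP6 libraries did. The log2 change was 0.64 with BMP4 (SE 0.21, limma adjusted p 1) and 0.07 with BMP6 (SE 0.21, adjusted p 1), and their difference was -0.56 (95% interval -1.27 to 0.14 from group means). With isolation as a term the interval of the difference was -1.05 to -0.07, with a limma adjusted p of 0.352. Klf11 passed in neither fit, and its BMP6 change took the other sign when a library was left out, from -0.14 to 0.29.

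The other Sin3a-binding members, Klf9 and Klf13, were higher after stimulation in 4 of 4 isolations, and neither passed. Klf9 (chr19:23118590-23145498, plus strand) was 4.23 and 7.26 TPM in isolation 48, 2.59 and 8.14 TPM in isolation 54, 10.6 and 12.3 TPM in isolation 75, and 12.1 and 13.6 TPM in isolation 77, vehicle first. Its highest BMP4 library thus stayed under its lowest vehicle library of the BMP6 experiment. The change was 1.10 with BMP4 (SE 0.22, limma adjusted p 0.545, and 0.0915 with isolation as a term) and 0.18 with BMP6 (SE 0.22, adjusted p 1). The difference of these responses was -0.92 (95% interval -1.66 to -0.19) with an adjusted p of 1.00.

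Klf13 (chr7:63536099-63588663, minus strand) has been studied most in lymphocytes and heart. With vehicle it was 14.0, 11.8, 10.98 and 11.01 TPM in isolations 48, 54, 75 and 77, and with BMP it was 15.1, 17.9, 13.6 and 14.4 TPM. Neither experiment's groups overlapped. The log2 change was 0.35 with BMP4 and 0.33 with BMP6 (SE 0.14 each, limma adjusted p 1 each), and the interval of the difference was -0.49 to 0.47. The 2 exons of its main transcript differed. Read depth was higher after stimulation in 4 of 4 isolations in the exon of 5447 bases. In the exon of 949 bases it went from 27.5 to 20.2, 20.9 to 21.8, 14.3 to 13.8 and 11.5 to 14.4 in isolations 48, 54, 75 and 77. These depths were not scaled to library size. In isolation 75 the BMP6 library had 48012825 estimated reads and its vehicle 52361911, so the step there cannot be read as a fall in level. Of all loci, 8.19% were higher after stimulation in 4 of 4 isolations, as were 5 of the 10 members (Klf4, Klf9, Klf10, Klf11 and Klf13), and 9.2% were lower in 4 of 4, as was 1 member (Klf5).

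Klf4 (chr4:55527143-55532466, minus strand), a pluripotency factor and regulator of growth arrest, was the member with the next largest change over both ligands after Klf10. It was 8.67 and 21.3 TPM in isolation 48 and 9.72 and 15.6 TPM in isolation 54, vehicle first. In isolations 75 and 77 it was 28.1 and 43.9 TPM and 37.1 and 54.6 TPM. In each experiment the stimulated libraries were above both vehicles, but the vehicle_b libraries were above the BMP4 libraries. The change was 0.95 with BMP4 and 0.59 with BMP6 (SE 0.21 each), and 0.77 over both, with a limma adjusted p of 0.395 from group means and 0.0725 with isolation as a term. So Klf4 did not pass, and 0.828% of loci had a larger change in size over both ligands.

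Klf3 (chr5:64960731-64990244, plus strand), the CtBP-binding repressor, was 9.59 and 9.54 TPM in isolation 48 and 7.91 and 15.7 TPM in isolation 54. It was 8.21 and 12.5 TPM in isolation 75 and 8.15 and 12.4 TPM in isolation 77, so it was above vehicle in 3 of 4 isolations and nearly equal to it in isolation 48. The change was 0.47 with BMP4 and 0.58 with BMP6 (SE 0.23 each, limma adjusted p 1 each). In the BMP6 library of isolation 75, ENSMUST00000166409.6 was given 4.13 of the 12.5 TPM, although the first exon found only in it had a read depth of 0.315. Klf3 shares bases with Gm20033 and C230096K16Rik, which reached at most 1.65 TPM, and the loci that share bases with Klf7, Klf9 and Klf13 reached at most 0.893, 0.310 and 1.05 TPM.

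Klf7 (chr1:64068606-64160650, minus strand), a zinc finger factor known from neuronal development, was 4.93 and 9.01 TPM in isolation 48 and 4.12 and 5.79 TPM in isolation 54. With BMP6 it was 9.48 TPM against 9.12 in isolation 75 and 9.77 against 9.94 in isolation 77. The BMP4 libraries were above their vehicles and the BMP6 libraries overlapped theirs. The change was 0.63 with BMP4 (SE 0.21, limma adjusted p 1) and 0.02 with BMP6, and the difference of -0.61 had an interval from -1.33 to 0.11 from group means. With isolation as a term that interval was -0.99 to -0.23, with a limma adjusted p of 0.301.

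**Figure D3:**
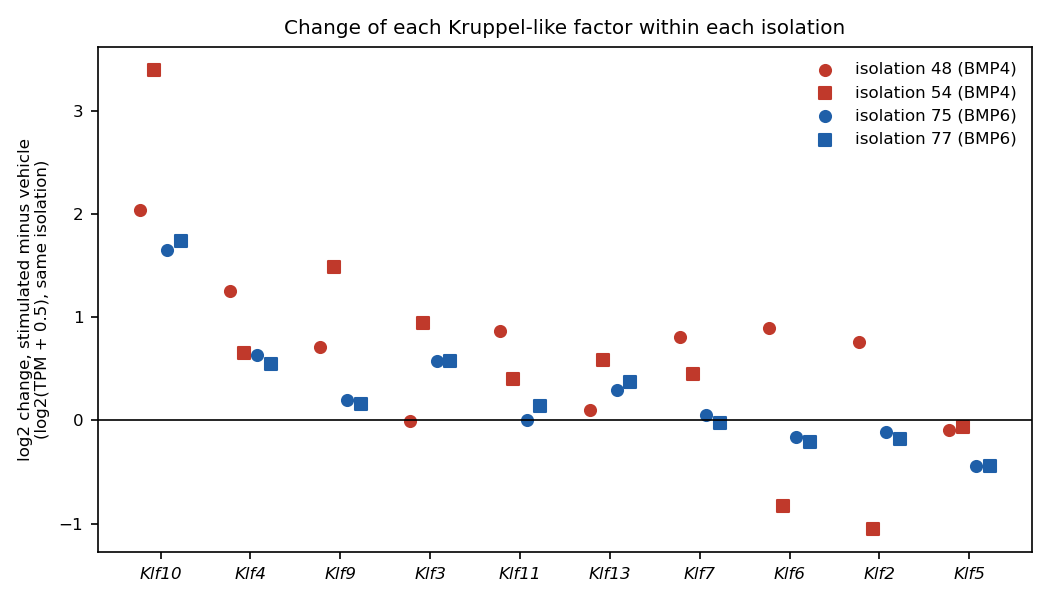
Change of each Kruppel-like factor within each isolation, stimulated minus vehicle, on the log2(TPM + 0.5) scale; red marks BMP4 and blue BMP6. Klf10 is at or above 1.66 in all 4 isolations, and Klf2 and Klf6 have opposite signs in isolations 48 and 54.

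Klf5 (chr14:99536127-99552472, plus strand), a growth-promoting factor that also takes part in muscle differentiation, was the only member lower after stimulation in 4 of 4 isolations. It was 13.4 and 12.5 TPM in isolation 48 and 30.3 and 29.1 TPM in isolation 54, and 15.2 and 11.1 TPM in isolation 75 and 16.8 and 12.2 TPM in isolation 77. The difference between isolations 48 and 54 was larger than any of its differences between ligand and vehicle, and isolation 54 also had the highest sum of muscle differentiation markers (12844 TPM with vehicle). Whether the marker level has a part in Klf5 was not tested. The change was -0.44 with BMP6 (SE 0.47, limma adjusted p 1; SE 0.049 and 0.103 with isolation as a term) and -0.08 with BMP4 (adjusted p 1 and 0.432).

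Klf2 and Klf6 had opposite directions in the 2 isolations given BMP4. Klf2 (chr8:73072877-73075500, plus strand), a factor known from quiescent T cells and endothelium, whose markers were near 0 here, went from 5.55 to 9.75 TPM in isolation 48 and from 16.1 to 7.46 TPM in isolation 54. Klf6 (chr13:5911481-5920393, plus strand), a widely expressed immediate early factor, went from 19.5 to 36.8 TPM and from 49.4 to 27.5 TPM. In the BMP6 experiment both were slightly lower with ligand, Klf2 at 20.5 against 22.2 TPM and 25.8 against 29.2 TPM, and Klf6 at 56.5 against 63.0 TPM and 70.2 against 81.0 TPM. The BMP4 change was -0.15 for Klf2 (SE 0.45) and 0.03 for Klf6 (SE 0.42), each with a limma adjusted p of 1.

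Immediate early genes, known to respond to serum within minutes, differed between the vehicle libraries of isolations 48 and 54. All 10 of the list were higher in that of isolation 54, and 5 of them (Fos, Jun, Egr1, Egr2 and Ier2) had their highest level of the 8 libraries there, while Junb, Ier3, Atf3, Fosb and Egr3 did not. Fos was 74.1 TPM in that library, against 3.85 TPM in the vehicle of isolation 48 and 15.7 TPM in the BMP4 library of isolation 54. Egr1 was 211 TPM there, against 3.89 and 31.9 TPM in those libraries. Of the 10 immediate early genes of the list, 9 were higher after BMP4 in isolation 48 (median log2 change 1.23) and 4 in isolation 54 (median -0.52), against 8 and 7 in isolations 75 and 77 (medians 0.15 and 0.09). Klf2 and Klf6 thus had the sign of the list's median in isolations 48 and 54 but not in 75 and 77, and whether the state of these libraries has a part in them was not tested. Without the vehicle library of isolation 54, the BMP4 change was 0.58 for Klf2 and 0.69 for Klf6, and without that of isolation 48 it was -0.87 and -0.63. Klf10, in contrast, was lowest in the vehicle library of isolation 54, and its BMP4 change was 1.98 without that library.

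**Figure D4:**
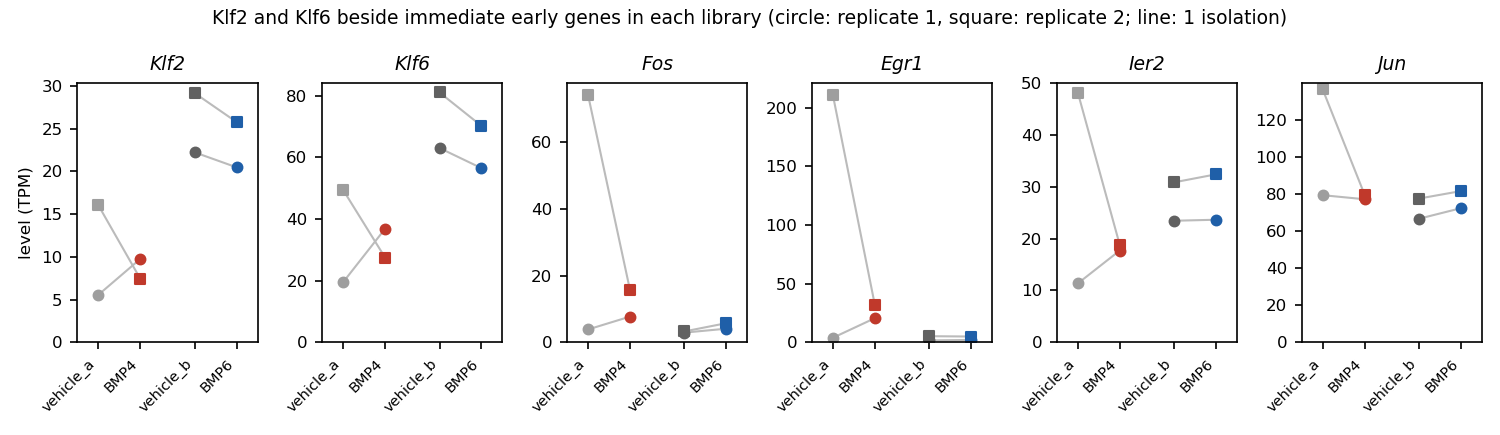
Level (TPM, axes from 0) of Klf2 and Klf6 and of the immediate early genes Fos, Egr1, Ier2 and Jun in each library. The vehicle library of isolation 54 (square in vehicle_a) has the highest level of the 4 immediate early genes, 74.1 TPM for Fos and 211 TPM for Egr1.

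Counted over the set, 0 of 10 members passed from group means with BMP4, with BMP6 or over both, where 0.0237%, 0.0118% and 0.071% of loci passed. With isolation as a term 0 of 10 passed with BMP4 (0.633% of loci), 0 with BMP6 (0.148%) and 1 over both. At an unadjusted p under 0.05, 6, 3 and 6 members passed from group means (3.31%, 1.26% and 2.4% of loci) and 6, 5 and 8 with isolation as a term (20.3%, 5.72% and 13.4%). Limma with voom weights on estimated reads and isolation as a term called 5, 2 and 5 members, beside 6%, 0.426% and 1.97% of loci. The members' median log2 change was 0.55 with BMP4, 0.13 with BMP6 and 0.35 over both, beside medians of -0.016, -0.0021 and -0.0098 over all loci. With BMP4, 6 members had both libraries above both vehicles (Klf4, Klf7, Klf9, Klf10, Klf11 and Klf13), where 10.3% of loci did. With BMP6, 5 did (Klf3, Klf4, Klf9, Klf10 and Klf13), where 10.6% did, and Klf5 was below, as were 9.95% of loci. The members' summed level went from 111 to 246 TPM, 145 to 241 TPM, 212 to 310.1 TPM and 262 to 389.6 TPM in isolations 48, 54, 75 and 77. Klf10 made up 25.7%, 6.85%, 18.7% and 19.4% of the sum with vehicle and 48.4%, 45.5%, 40.5% and 43.7% after stimulation.

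In both stimulated groups Klf10 came first, without overlap with the next by group mean, Klf6 (109.8 to 119 against 27.5 to 36.8 TPM with BMP4, 126 to 170.4 against 56.5 to 70.2 TPM with BMP6). With BMP4, Klf6 overlapped with Klf5 (12.5 to 29.1 TPM), which was above it in isolation 54, and each further neighbour overlapped down to Klf7, which was above Klf11. With BMP6, only Klf9 and Klf3 overlapped. In vehicle_b, Klf6 came before Klf10 without overlap (63.0 to 81.0 against 39.5 to 50.7 TPM). In vehicle_a, neighbours in the order Klf6, Klf5, Klf10, Klf13, Klf2, Klf4 and Klf3 overlapped, so the order of neighbours was not resolved. Members further apart could still be told apart. Klf6 (19.5 to 49.4 TPM) was above Klf13, Klf2, Klf4 and Klf3, and Klf5, Klf10 and Klf13 were above Klf4 and Klf3. Klf3 was above Klf7 there (7.91 to 9.59 against 4.12 to 4.93 TPM), and Klf7, Klf9 and Klf11 overlapped in turn. In vehicle_b, Klf4 overlapped with Klf2 and Klf9 with Klf13, and the other neighbours did not overlap.

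Without ligand, Klf4, Klf9 and Klf7 were higher in the BMP6 experiment than in the BMP4 experiment. The vehicle_b libraries had 28.1 and 37.1 TPM of Klf4 against 8.67 and 9.72 TPM in vehicle_a, 10.6 and 12.1 against 4.23 and 2.59 TPM of Klf9, and 9.12 and 9.94 against 4.93 and 4.12 TPM of Klf7. The log2 differences were 1.76 (SE 0.21, limma adjusted p 0.00762), 1.63 (SE 0.22, adjusted p 0.00898) and 1.00 (SE 0.21, adjusted p 0.0230), so these 3 of 10 members passed, beside 27.2% of all loci (10.6% higher and 16.6% lower). Klf10 (1.38, adjusted p 0.0621), Klf2 (1.38, 0.0628), Klf6 (1.19, 0.0739) and Klf11 (0.68, 0.0541) were above vehicle_a in both libraries without passing. In all, 7 members were higher without overlap, where 34.9% of loci were, and Klf13 was lower without overlap, where 38.8% were. Klf3 (-0.09), Klf13 (-0.21) and Klf5 (-0.33) did not pass, and Klf3 changed sign to 0.02 when library medians were made equal.

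All 7 muscle differentiation markers were lower in vehicle_b and passed, with a median log2 difference of -3.81. Of the 8 muscle stem cell markers, 4 passed as lower and 2 as higher, and 3 of 4 tested pericyte markers passed as lower. Of all loci, 16.6% passed as lower and 10.6% as higher. The part of these markers in the Kruppel-like factor levels was not tested, and experiment and isolation cannot be told apart. Making the medians of the libraries equal moved the median of all loci by 0.105 and the split of calls from 1799 higher and 2803 lower to 2742 higher and 2273 lower (29.7% of loci); Klf4, Klf7 and Klf9 kept their direction, and Klf10 (1.48, limma adjusted p 0.0486) and Klf11 (0.78, 0.0424) passed too. Without vehicle_b replicate 1 or 2, no member passed (Klf4 adjusted p 0.0524 and 0.0693, Klf9 0.0638 and 0.0806), and 12 and 5 loci passed in all. Klf7 was also lost without either BMP6 library (0.0518 and 0.0517) or without vehicle_a replicate 2 (0.119). Without vehicle_a replicate 2, 420 loci passed, and Klf2 (2.10, adjusted p 0.0358) and Klf6 (1.85, 0.0385) did; without vehicle_a replicate 1, Klf10 did (2.12, 0.0159), as it did with all its reads on the main transcript.

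**Figure D5:**
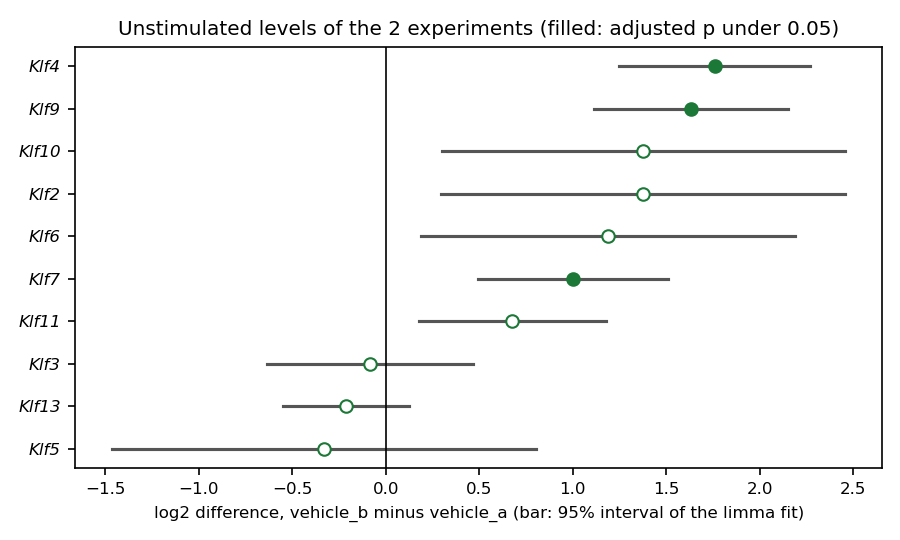
Difference of unstimulated levels, vehicle_b minus vehicle_a, on the log2(TPM + 0.5) scale, with the 95% interval of the limma fit; filled points have an adjusted p under 0.05. Klf4, Klf9 and Klf7 pass, at 1.76, 1.63 and 1.00.

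Genes around the family were read from lists. Of the 7 other Klf genes, Klf8, Klf12 and Klf16 could be tested and none passed in any comparison, with changes over both ligands from 0.03 (Klf8) to 0.17 (Klf16); Klf17 was at 0 and Klf1, Klf14 and Klf15 were under 1 TPM. Klf16, a Sin3a-binding member, was 8.11 to 17.4 TPM. Of 9 Sp factors, the relatives that bind the same GC boxes, 5 could be tested. Sp7 (osterix), the bone-forming factor, rose over both ligands by 0.75 with isolation as a term (SE 0.072, limma adjusted p 0.0334), the 1 of 5 to pass in that fit, where 0.674% of loci did. From group means its adjusted p was 0.952, and 2 of 20 alternatives called it. The lowest change over both ligands among the Sp factors was 0.0022 (Sp2). Sp7 was 7.67 and 9.16 TPM, 5.97 and 8.40 TPM, 1.77 and 4.11 TPM and 2.73 and 7.23 TPM in the 4 isolations, vehicle first. In the vehicles, Sp3 was higher in vehicle_b (0.85, adjusted p 0.0179) and Sp7 lower (-1.42, adjusted p 0.0218). That is 1 of 5 each way, where 10.6% of all loci passed as higher and 16.6% as lower.

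Of the 7 corepressor genes, 6 could be tested and none passed after a ligand, with changes over both ligands from -0.19 (Sap30, a subunit of the Sin3 complex) to 0.33 (Sin3b). In vehicle_b, Sap30 (-1.75, limma adjusted p 0.0112) and Ctbp1 were lower, 2 of 6 tested, where 16.6% of all loci passed as lower. Of the 6 ERK5 and MEF2 genes, 5 could be tested and none passed after a ligand, with changes over both ligands from -0.18 (Mapk7, which encodes ERK5) to 0.14 (Mef2a). Mef2a and Mef2d were lower in vehicle_b (-1.66 and -1.82, adjusted p 0.0165 and 0.0182), 2 of 5 tested, beside the same 16.6% of loci. Of the 7 glucocorticoid response genes, 6 could be tested and none passed after a ligand, with changes from -0.28 (Sgk1) to 0.23 (Nr3c1, the receptor). Tsc22d3 was higher in vehicle_b (0.81, adjusted p 0.0441), 1 of 6 tested, where 10.6% of all loci passed as higher. Of the 10 immediate early genes, Junb was the 1 to pass over both ligands (1.21, limma adjusted p 0.0452 from group means, where 0.071% of loci passed). The change was positive for 6 of the 10, and the lowest was that of Ier2 (-0.16). Atf3 was higher in vehicle_b (2.12, adjusted p 0.0150), 1 of 10 tested, beside the same 10.6% of loci.

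Of the 8 SMAD feedback and Id genes, 2 rose with BMP4 from group means and 5 with isolation as a term, 0 and 4 with BMP6, and 4 and 6 over both, and none fell. In those fits 0.0237% and 0.633% of all loci passed, higher or lower, with BMP4, 0.0118% and 0.148% with BMP6, and 0.071% and 0.674% over both. The listed genes that passed over both were Id1, Smad6, Smad7 and Skil from group means, and Id3 and Pmepa1 as well with isolation as a term. Their median change was 1.53 with BMP4, 1.57 with BMP6 and 1.50 over both, with Smad7 highest (2.69 over both, limma adjusted p 0.00566) and Bambi lowest (0.10). Between vehicles, Smad7 was higher in vehicle_b (0.97, adjusted p 0.0303) and Smad6 lower (-0.84, 0.0366). That is 1 of 8 each way, where 10.6% of all loci passed as higher and 16.6% as lower. The 5 named loci whose levels followed Klf10 most closely over the 8 libraries, out of 12149, were Cldn4 (Pearson r 0.98), Dlx2 (0.97), Smad7 (0.97), Luzp1 (0.97) and Kdm6b (0.97). For Klf11 they were Spry2 (0.97), Atl2 (0.95), Zfa-ps (0.94), Ywhaz (0.94) and Slc4a7 (0.93). These correlations describe 8 libraries that share isolations and treatments. Cldn4 and Spry2 were picked by them, so the likenesses given next follow from that choice. Cldn4, a tight junction protein, was 3.72 to 8.57 TPM with vehicle and 17.1 to 20.6 TPM after stimulation, so its groups were as separate as those of Klf10. Spry2, an inhibitor of receptor tyrosine kinase signalling, was 12.2 and 28.2 TPM in isolation 48, 15.2 and 25.4 TPM in isolation 54, 25.7 and 30.8 TPM in isolation 75 and 41.2 and 43.4 TPM in isolation 77. As for Klf11, its vehicle level was higher in the BMP6 experiment and the groups with BMP6 overlapped.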

How the data were processed

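Libraries were strand-specific and poly(A)-selected, from 500 ng total RNA, and sequenced as 50 base single-end reads, per the labels' protocols. The submitters' processing notes name STAR 2.7.11a, SAMtools 1.17 and StringTie 2.2.1 on GRCm39. The authors deposited StringTie levels in TPM per locus and, per transcript, TPM and read coverage. StringTie's command, per the file headers, set no strand option and no correction for multiple mapping, so overlapping genes can share reads. Reads were estimated from the deposited coverage and length.

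The 16908 loci whose mean level reached 0.5 TPM were tested with limma 3.58.1 in R 4.3.3 on log2(TPM + 0.5), with a trend in the variance and 4 group means, two-sided, Benjamini-Hochberg adjusted over all tested loci, threshold 0.05. Fold changes on this scale understate those of low genes. The same fit with isolation as a term is given beside it where it changes a call. Vehicle and stimulated library come from the same isolation, and their deviations from the group means correlated (r 0.71 in isolations 48 and 54, 0.45 in 75 and 77). Both replicates of each group differed by more than sampling noise (mean chi-square per gene 34.2 to 238). The script was tested on simulated data before use. The 10 members and all lists were chosen with earlier results of these data known; named genes were all members, and of each pathway list those past the threshold in either fit and those with the highest and lowest change over both ligands; marker lists are given by sums, and any marker named was chosen after its values were seen. Schwann cell markers summed to 12.1 to 31.4 TPM. Alternatives, 1 of them (the transcript given the Klf10 reads) chosen after seeing the data, were another pseudocount, filter or scaling, voom on estimated reads, own-experiment fits and leaving out libraries or isolations. Promoters came from RefSeq by symbol.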

Additional observations from a re-analysis of the deposited data

How the results depend on the processing

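The 5 comparisons were refitted under up to 21 alternatives, not counting the setting with all Klf10 reads on its main transcript. Direct limits are the 2 libraries per group and the single ligand per experiment; the lowest level of a member was 2.59 TPM (Klf9, vehicle_a replicate 2), in a library of 57315395 estimated reads. A fit without 1 library leaves its group with 1, which is assumed to vary like the others. A fit without 1 isolation leaves its ligand with 1 isolation, which is assumed to vary like those of the other experiment.

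With isolation as a term (the replicate block), loci called went from 4 to 107 with BMP4, from 2 to 25 with BMP6 and from 12 to 114 over both, and members called over both from 0 to 1 (Klf10); it changed no other call of a member. Voom on estimated reads called 2 loci with BMP4, and with the replicate block 1015 with BMP4, 72 with BMP6, 333 over both and 26 for the difference of responses, with 5, 2 and 5 members (BMP4: Klf4, Klf7, Klf9, Klf10, Klf11; BMP6: Klf5, Klf10; both: Klf4, Klf5, Klf7, Klf9, Klf10). Without a filter on low values the counts were 8 (BMP4), 12 (BMP6), 7 (both), 1 (difference) and 2490 (vehicles). A minimum of 2 TPM gave 1 with BMP6, a pseudocount of 2 gave 0, and fits on own experiments gave 0 with BMP4 and 12 with BMP6. Between vehicles, equal library medians called 5 members and 5015 loci, and voom 6 members and 4213 loci.

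Leaving out 1 library gave 0 to 16 loci with BMP4, 0 to 11 with BMP6, 0 to 24 over both, 0 to 4 for the difference and 5 to 5551 between vehicles, and 0 to 1, 0, 0 to 1, 0 and 0 to 4 members. Under the replicate block without isolation 48, 54, 75 or 77, loci were 145, 97, 21 and 23 with BMP4, 49, 47, 0 and 2 with BMP6, 192, 119, 15 and 22 over both and 15, 16, 0 and 1 for the difference. Members were then 5, 3, 0 and 0 with BMP4, 1, 1, 0 and 0 with BMP6, 6, 2, 0 and 0 over both and 1, 0, 0 and 0 for the difference. Those 5 with BMP4, without isolation 48, were Klf2 (-1.06), Klf3, Klf6 (-0.83), Klf9 and Klf10; without isolation 54 they were Klf4, Klf6 (0.90) and Klf10, so Klf6 passed in opposite directions. From group means, Klf10 passed with BMP4 without vehicle_a replicate 1, and over both without vehicle_a replicate 1 or 2. Of the list genes called over both, Junb passed without 2 of 8 single libraries, Smad7 without 4 and Sp7 without 0 (adjusted p up to 0.324, 0.0597 and 1), Skil without 5, Smad6 without 4, Id1 without 3, Id3 without 2 and Pmepa1 without 0; between vehicles, Sp3, Sp7, Sap30, Mef2a, Mef2d and Atf3 passed without 5 of 8, Smad7 without 3 and Smad6, Ctbp1 and Tsc22d3 without 2.

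Signs also turned among values that had not passed, and the cause was not tested. The difference of responses of Klf2 (0.0025) was -0.028 with equal medians, -0.00093 at a pseudocount of 0.1 and -0.0026 with voom. Klf3 between vehicles was 0.019 with equal medians and 0.021 with voom, Klf6 with BMP4 was -0.019 with voom and the block, and Klf7 with BMP6 was -0.00094 with equal medians. Leaving out 1 library gave -0.87 to 0.58 (BMP4), -0.34 to 0.047 (BMP6), -0.72 to 0.73 (difference) and -0.51 to 0.22 (both) for Klf2. For Klf6 it gave -0.63 to 0.69 (BMP4), -0.87 to 0.45 (difference) and -0.40 to 0.26 (both). For Klf5 it gave -0.67 to 0.52 (BMP4), -0.96 to 0.23 (difference), -0.56 to 0.037 (both) and -0.90 to 0.24 (vehicles). For Klf3 it gave -0.23 to 0.45 (difference) and -0.22 to 0.046 (vehicles), for Klf7 -0.044 to 0.074 and for Klf11 -0.14 to 0.29 (both BMP6), and for Klf13 -0.13 to 0.11 (difference). Under the replicate block without 1 isolation, the values of turned sign for Klf2 were 0.76 (BMP4), 0.31 (both), and -0.91 and -0.027 (difference). They were -0.83 (BMP4), 0.65 (difference) and 0.36 (both) for Klf6, -0.0075 (BMP4) and -0.37 (difference) for Klf3, -0.023 for Klf7 with BMP6, and 0.23 and 0.030 for Klf13 (difference). Klf4, Klf9 and Klf10 kept their direction in all 5 comparisons under each alternative run.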
